A study of Mus musculus with 4 samples.

Results

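Ccr1, Ccr2, Cx3cr1, Cxcr3 and Cxcr4, 5 of the 23235 genes in each deposited table, were taken by name, and all 5 were found. They encode chemokine receptors, which are proteins of the cell surface with several membrane-spanning segments. Binding of a chemokine activates an inhibitory G protein inside the cell and steers the cell along the chemokine gradient; arrestins then end the signal and take the receptor into the cell. On myeloid cells, Ccr2 is known for bringing monocytes out of the bone marrow, Ccr1 for recruitment to inflamed tissue, Cx3cr1 for the survival and patrolling of monocytes, and Cxcr4 for holding immature cells in the marrow. Cxcr3 is best known on activated T and NK cells and on plasmacytoid dendritic cells.

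The data are bulk RNA sequencing of a mouse acute myeloid leukaemia that carried NRASG12V, an activated Ras oncogene, and the Mll-AF9 fusion, in all 4 libraries. In 3 libraries NRASG12V expression was off, after 48 h, 72 h or 96 h of doxycycline, and in 1 library it was on; each time is 1 library. The leukaemia cells had been injected into SCID/Beige mice, which lack mature T and B cells and have impaired NK cells but keep their own myeloid, erythroid and stromal cells, and were left for 20 days, until white cells exceeded 100000 per microlitre. The labels name no sample that received doxycycline while NRASG12V stayed on, so the drug, the elapsed time and the switch cannot be told apart. They give no tissue, sex or number of mice per library.

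Levels are in FPKM, fragments scaled to transcript length and library size, and were put on 1 scale through the on library, which every table holds. A change is log2((off FPKM + 1)/(on FPKM + 1)) within the table of its time, a scale that understates changes of low values. Genes that differed at least 2-fold are called higher or lower as a description, since 1 library has no replicate check. The 3 off libraries were also tested against the on library with limma, in which the times serve as replicates and the single on library is assumed to vary as the off ones do. The p-values therefore rest on the spread among the 3 off libraries, which includes the differences between times, and the on library adds no spread of its own. No label ties a library to its own animal, so the p-values speak for these 4 samples only, and the spread may be technical.

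The granulocyte enzyme Mpo and the integrin Itgam, markers of myeloid cells, were both expressed: Mpo had 134, 132 and 120 FPKM in the off libraries of 48 h, 72 h and 96 h, against 990 FPKM on, and Itgam 129, 118 and 72.0 FPKM off, against 143 FPKM on. They come from a list of 6 myeloid markers that did not move as one. Elane and Spi1 were also below the on library at each time. Csf3r was above it, with 41.9, 44.7 and 27.8 FPKM off, against 12.8 FPKM on. Lyz2 was above it at 48 h and 72 h and below it at 96 h. Nras, the mouse gene of the switched oncogene, had 70.0% to 79.5% of its on level in the off libraries, a weak check of the labels because reads of a transgene need not all be counted in the mouse gene. FPKM hold no read counts, so depth is unknown. The commonest off to on ratio among values under 0.3 FPKM was taken as that of 1 read. It held for 15.0%, 13.8% and 10.1% of these genes at 48 h, 72 h and 96 h. By this ratio each off library had 1.04 to 1.19 times the reads per unit of FPKM of the on library. That is a relative depth only where the scaling followed mapped totals. In all, 4.85%, 5.76% and 8.16% of 11739, 11746 and 11729 measured genes were at least 2-fold lower at 48 h, 72 h and 96 h, and 5.0%, 6.61% and 7.39% were higher. Limma called 27.0% of 11958 genes, 15.2% lower and 11.8% higher.

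Of the 5 receptors, Ccr1 and Cx3cr1 fell once NRASG12V was off, and no receptor rose. Ccr2 and Cxcr4 were below the on library at each time but did not pass the test, and Cxcr3 was above it at each time without passing. The share of receptors lower by limma, 2 of 5, stands beside 15.2% of all genes. At least 2-fold lower were 1 of the 5 at 48 h, 2 at 72 h and 3 at 96 h, beside backgrounds of 4.85%, 5.76% and 8.16%. The 5 were chosen with earlier results of these data known, so these shares are a description and not a test of the set. The median change of the 5 was -0.51, -0.71 and -1.37 at these times, against -0.14, -0.07 and -0.06 for all measured genes. The 3 comparisons share the on library, so they are not independent of one another. In bulk RNA, fewer cells of a type and less RNA per cell cannot be told apart.

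The stretches before the starts of 3 of the genes are shown because these genes stand for the 3 kinds of pattern: Ccr1 had the lowest change, Cxcr3 stayed above the on library and Cxcr4 was the most abundant. Each is the 250 bases before the annotated start, 5′ to 3′ on the strand of the gene, from RefSeq (GRCm38.p6, a later build than the mm9 of the deposited tables). In Ccr1 (chr9:123968693-123968942, minus strand) and Cxcr3 (chrX:101734148-101734397, minus strand), capitals mark GGAA or its complement TTCC, the core recognised by ETS factors, a family that includes targets of ERK signalling and the myeloid factor Spi1. In Cxcr4 (chr1:128592300-128592549, minus strand) they mark GCGCATG or its complement, part of the motif of the factor NRF-1, and TATAAA, the TATA box.
Ccr1: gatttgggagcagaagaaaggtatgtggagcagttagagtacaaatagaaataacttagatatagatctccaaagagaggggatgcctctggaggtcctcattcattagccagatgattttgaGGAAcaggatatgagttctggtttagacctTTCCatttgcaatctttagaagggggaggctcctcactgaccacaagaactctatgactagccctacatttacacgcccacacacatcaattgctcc
Cxcr3: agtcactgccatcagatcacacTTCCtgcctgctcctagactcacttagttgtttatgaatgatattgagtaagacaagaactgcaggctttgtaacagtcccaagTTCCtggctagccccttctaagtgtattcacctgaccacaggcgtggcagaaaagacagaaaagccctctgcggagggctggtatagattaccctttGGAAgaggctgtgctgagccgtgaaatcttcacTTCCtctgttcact
Cxcr4: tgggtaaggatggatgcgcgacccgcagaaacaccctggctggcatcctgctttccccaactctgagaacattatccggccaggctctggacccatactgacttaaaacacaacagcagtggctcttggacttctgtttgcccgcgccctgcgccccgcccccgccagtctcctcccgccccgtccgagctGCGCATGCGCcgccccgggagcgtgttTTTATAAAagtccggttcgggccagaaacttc

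Searched on both strands, GGAA occurred 2 times in the Ccr1 stretch, 3 times in Ccr2, 2 times in Cx3cr1, 4 times in Cxcr3 and 1 time in Cxcr4. At least 1 match stood in 93.5% of the 32851 promoters in the table, with a median of 3. TGANTCA, the motif of AP-1, was in none of the 5 and in 6.75% of all promoters. GCGCATG, present in 3.24% of promoters, was in the Cxcr4 stretch alone among the 5, with 2 overlapping matches. Cxcr4 also held 3 matches to the Sp1 motif GGGCGG, found in 32.7% of promoters, and 2 overlapping matches to TATAAA, found in 12.4%; the other 4 receptors held neither. By base composition Cxcr4 also differed from the others: it had 61.2% G and C and 19 CpG pairs, against 37.2% to 53.6% and 1 to 4 pairs in the other 4 and medians of 52.4% and 6 over all promoters. These are matches of letters and say nothing about binding.

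Ccr1, a receptor for Ccl3, Ccl5, Ccl6, Ccl7 and Ccl9 in the mouse, had 9.92, 9.37 and 5.65 FPKM at 48 h, 72 h and 96 h off, against 27.6 FPKM with NRASG12V on. Every off library was well below the on library, and the 96 h library was the lowest. Its changes of -1.39, -1.46 and -2.10 lay at the 1.79, 1.73 and 0.776 percentile of all measured genes. The mean change was -1.65 ± 0.39 (SD, n = 3 off libraries), and the limma test called Ccr1 (Benjamini-Hochberg adjusted p = 0.00547). Its level reached 36.0% of the on level at 48 h and 20.5% at 96 h.

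Cx3cr1, the receptor of the membrane-bound chemokine Cx3cl1, had 9.28, 6.97 and 4.61 FPKM at 48 h, 72 h and 96 h off, against 16.2 FPKM on. The off libraries were all below the on library, each later one lower than the one before. Changes of -0.74, -1.11 and -1.61 averaged -1.15 ± 0.44 (SD, n = 3 off libraries), which passed limma (Benjamini-Hochberg adjusted p = 0.0260). With the median change of genes set to 0 it no longer passed (limma, Benjamini-Hochberg adjusted p = 0.0640), and without the filter on low values neither Cx3cr1 nor Ccr1 passed (adjusted p = 0.340 and 0.226).

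Ccr2, the receptor of the monocyte attractants Ccl2, Ccl7 and Ccl12, had 23.7, 20.3 and 12.5 FPKM at 48 h, 72 h and 96 h off, against 33.9 FPKM on. All off libraries were below the on library and the 96 h library was the only one past 2-fold. The changes were -0.50, -0.71 and -1.37, with a mean of -0.86 ± 0.45 (SD, n = 3 off libraries) that did not pass limma (Benjamini-Hochberg adjusted p = 0.0734). Leaving out the 48 h, the 72 h or the 96 h library gave limma changes of -1.04, -0.93 and -0.61 for Ccr2. These fits rest on fewer libraries than the main test, so their p-values are not given.

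Cxcr4, the receptor of Cxcl12, was the most abundant of the 5 in every library, with 71.6, 71.3 and 63.4 FPKM at 48 h, 72 h and 96 h off, against 102 FPKM on. The 3 off libraries lay close together, all below the on library, and none differed 2-fold from it. The changes of -0.51, -0.52 and -0.68 averaged -0.57 ± 0.10 (SD, n = 3 off libraries) and did not pass (limma, Benjamini-Hochberg adjusted p = 0.0628). Leaving out the 48 h, the 72 h or the 96 h library gave limma changes of -0.60, -0.60 and -0.51 for Cxcr4. Among genes at 1 FPKM or more, Cxcr4 stood at the 92.1, 91.8 and 90.3 percentile of level in the off libraries and at 93.6 in the on library.

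Cxcr3, a receptor for the interferon-induced chemokines Cxcl9, Cxcl10 and Cxcl11, had 7.50, 4.75 and 4.51 FPKM at 48 h, 72 h and 96 h off, against 3.98 FPKM on. The 48 h library was the highest, and those of 72 h and 96 h were near the on library. Changes of 0.78, 0.21 and 0.15 had a mean of 0.38 ± 0.35 (SD, n = 3 off libraries), which did not pass limma (Benjamini-Hochberg adjusted p = 0.308).

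**Figure D1:**
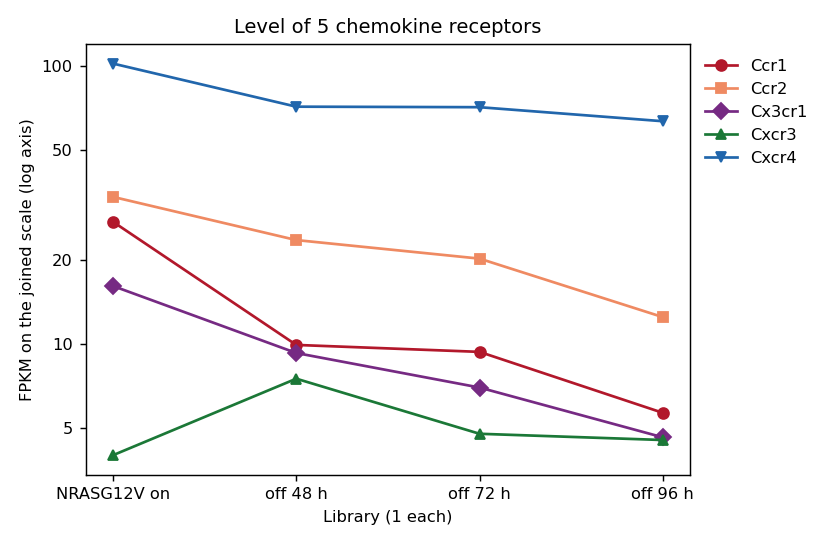
Level of the 5 receptors in FPKM on a log axis (joined scale), 1 point for each of the 4 libraries, with lines joining the points of a gene. Cxcr4 lies above the others throughout, at 63.4 to 71.6 FPKM off and 102 FPKM on, and the other 4 lie closer together at 96 h, between 4.51 and 12.5 FPKM, than in the on library, between 3.98 and 33.9 FPKM.

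By level, the order in the off libraries as in the on library was Cxcr4, Ccr2, Ccr1, Cx3cr1 and Cxcr3. Over the 3 off libraries the means were 68.8 ± 4.6, 18.8 ± 5.7, 8.31 ± 2.32, 6.95 ± 2.33 and 5.59 ± 1.66 FPKM in that order (SD, n = 3). The means of the neighbours Ccr1 and Cx3cr1, and of Cx3cr1 and Cxcr3, differed by less than this spread. The spread is that between times, and within every library the order was the same. The summed FPKM of the 5 genes was 122, 113 and 90.7 at 48 h, 72 h and 96 h off and 184 on. Cxcr4 held 58.7%, 63.3% and 69.9% of that sum off and 55.6% on, and Ccr1 held 8.14%, 8.32% and 6.23% off and 15.0% on. The balance within the set therefore moved: per length, Ccr2 had 2.39, 2.17 and 2.21 times the level of Ccr1 in the off libraries and 1.23 times on. Cx3cr1 had 1.24, 1.47 and 1.02 times the level of Cxcr3 off and 4.07 times on.

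Between the off libraries, 96 h against 48 h, all 5 receptors were lower, by log2 differences of -0.72 for Ccr1, -0.87 for Ccr2, -0.87 for Cx3cr1, -0.63 for Cxcr3 and -0.17 for Cxcr4. None was 2-fold lower on this scale, as were 0.491% of 11602 genes. The step was unevenly placed. Ccr1 and Ccr2 differed by -0.08 and -0.21 between 72 h and 48 h and by -0.64 and -0.66 between 96 h and 72 h. Cxcr3 had the opposite placing, with -0.56 in the first interval and -0.06 in the second.

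**Figure D2:**
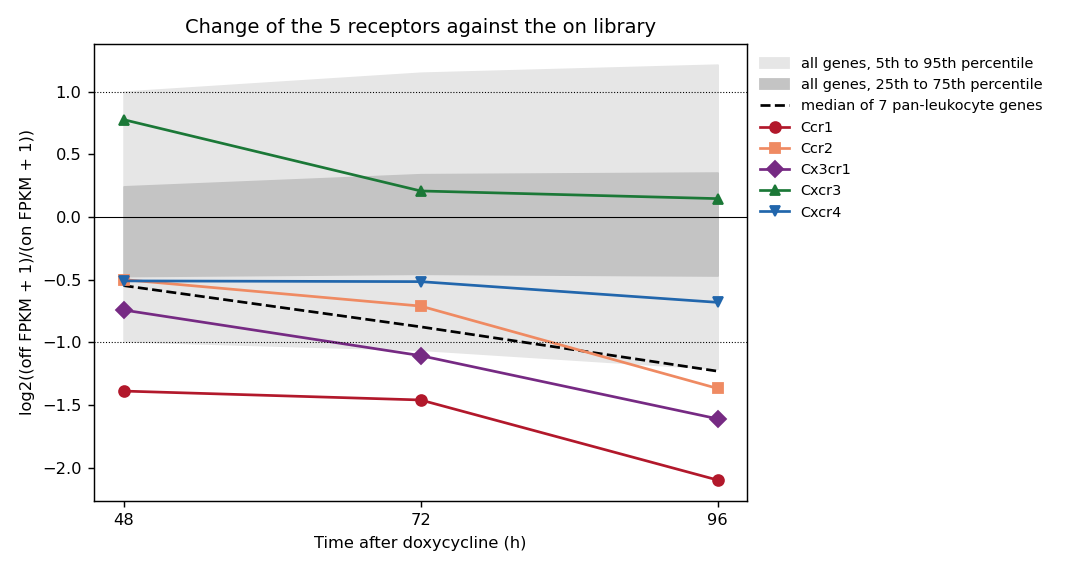
Change of each receptor against the on library at 48 h, 72 h and 96 h after doxycycline (log2 scale), over bands that hold 50% and 90% of all measured genes and the median of 7 pan-leukocyte genes (dashed); dotted lines mark 2-fold. Ccr1 lies below the wider band at each time, Cx3cr1 lies below it from 72 h and Ccr2 at 96 h, Cxcr4 stays near -0.5 to -0.7 and Cxcr3 stays above 0.

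Of 7 pan-leukocyte genes, 3 fell by limma, none rose and 4 did not pass, beside 15.2% lower and 11.8% higher among all genes. Their median changes were -0.55, -0.88 and -1.23 at 48 h, 72 h and 96 h. Their summed level was 1831, 1491 and 1098 FPKM off, against 2681 FPKM on. Summed erythroid markers stood at 1049, 1520 and 1708 FPKM off, against 287 FPKM on, and all 6 passed limma as higher. Their part in the receptor values was not tested. Less the pan-leukocyte median of the same library, a comparison added after the data were seen, the Ccr1 change was -0.84, -0.58 and -0.87, still negative but under 2-fold. For Cx3cr1 it was -0.19, -0.23 and -0.38. Ccr2, at 0.05, 0.17 and -0.14, and Cxcr4, at 0.04, 0.36 and 0.55, turned positive at 48 h and 72 h, and Cxcr4 also at 96 h. Cxcr3 stood 1.32, 1.08 and 1.38 above it.

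The 7 genes did not move alike, so the size of this subtraction rests on the genes used. Ptprc, which encodes the leukocyte antigen CD45, had changes of 0.52, 0.43 and -0.12, and the Ccr1 change less that of Ptprc was -1.91, -1.89 and -1.98. Ccr2, Cx3cr1 and Cxcr4 were also below Ptprc at each time, by -1.02, -1.14 and -1.25 for Ccr2, -1.26, -1.53 and -1.50 for Cx3cr1, and -1.03, -0.94 and -0.57 for Cxcr4. Cxcr3 was above it at 48 h and 96 h, by 0.25 and 0.26, and below it at 72 h, by -0.22. Ccr1 was below all 7 pan-leukocyte genes at each time, and Cx3cr1 below all 7 at 96 h.

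**Figure D3:**
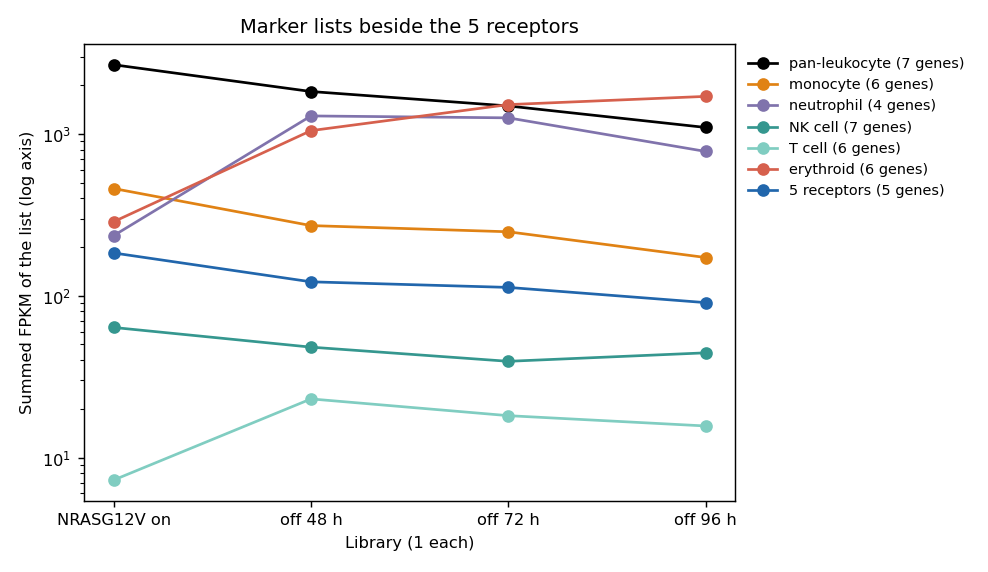
Summed FPKM (log axis) of marker lists and of the 5 receptors in the 4 libraries, 1 point per library. The pan-leukocyte sum runs down to 1098 FPKM at 96 h while the erythroid sum reaches 1708 FPKM, and the sum of the receptors, 90.7 FPKM at 96 h, follows the downward course.

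Other cell types that carry these receptors were measured by fixed marker lists. The counts by limma stand beside 15.2% of all genes lower and 11.8% higher. Of 6 monocyte markers, 3 fell by limma and none rose; the clotting factor subunit F13a1 and the lipopolysaccharide co-receptor Cd14 were at least 2-fold lower at each time, while the monocyte receptor gene Csf1r had changes of -0.24, -0.37 and -0.57. The list's summed level was 272, 249 and 172 FPKM off, against 460 FPKM on. Nonclassical monocytes are the monocytes richest in Cx3cr1, and their 4 markers did not move as one: Treml4 rose, Nr4a1 fell and Ace and Itgax did not pass. All 4 measured neutrophil markers rose. Summed T cell markers were at 23.0, 18.1 and 15.7 FPKM off, against 7.26 FPKM on, and 3 of the 4 that reached 1 FPKM rose: Cd3d, Lck and Cd8a. Cd3d, a subunit of the T cell receptor complex, had 13.9, 11.3 and 7.42 FPKM off, against 3.79 FPKM on (limma, Benjamini-Hochberg adjusted p = 0.0168). Cd3e and Cd3g, subunits of the same complex, were at 0 to 0.141 FPKM and 0.059 to 0.509 FPKM over the 4 libraries. Of the 7 NK markers, Ncr1 and Gzma rose and Nkg7 fell; Ncr1 had 2.77, 3.24 and 3.20 FPKM off, against 0.715 FPKM on. The plasmacytoid dendritic cell marker Siglech was at 1.80 to 2.23 FPKM off, against 0.865 FPKM on, and rose. The list's other markers did not pass limma: Ly6d was above the on library at each time and Tcf4 below it. Bst2 was above the on library at 48 h and 96 h and below it at 72 h. The list's summed level was 72.1, 37.8 and 53.6 FPKM off, against 51.1 FPKM on. Bst2 made up 59.4, 27.4 and 41.6 FPKM of that sum off and 39.8 FPKM on. Of 5 B cell markers only Cd79b reached 1 FPKM, and Pax5 was at 0 in every library. Cd8a, Ncr1 and Siglech passed the filter on low values through off libraries alone, each being under 1 FPKM in the on library. The part of these cells in the receptor values was not tested.

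Ccr1 and Ccr2 lie on mouse chromosome 9. The run taken here, from Ccr9 to Ccr2, has 9 protein-coding genes, of which 7 are chemokine receptors. Their order is Ccr9, Cxcr6, Xcr1, Ccr1, Ccr1l1, Ccr3 and Ccr2 (GENCODE M21). The ends were set by name and need not be where receptor genes stop. Neighbours in this run had different values. Xcr1, next to Ccr1 and known from cross-presenting dendritic cells, had 11.3, 8.89 and 9.91 FPKM at 48 h, 72 h and 96 h off, against 4.38 FPKM on, and rose by 1.03 ± 0.16 (SD, n = 3; limma, Benjamini-Hochberg adjusted p = 0.00838). Ccr3, the eosinophil receptor that lies next to Ccr2, had 6.92, 7.37 and 8.60 FPKM off, against 1.03 FPKM on, and rose by 2.08 ± 0.13 (SD, n = 3; limma, Benjamini-Hochberg adjusted p = 0.000927). Ccr9, Cxcr6 and Ccr1l1 stayed under 1 FPKM in all 4 libraries.

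Of 19 further chemokine and related receptors, 9 reached 1 FPKM in at least 1 library; 4 of these rose by limma and 5 did not pass, beside 11.8% of all genes higher. Besides Ccr3 and Xcr1, the neutrophil receptor Cxcr2 rose, with 37.1, 34.3 and 20.9 FPKM off, against 9.54 FPKM on, as did Darc, a chemokine-binding receptor of red cells, with 19.1, 23.9 and 24.0 FPKM off, against 7.25 FPKM on. Ccr6, the atypical receptors Cxcr7 and Ccrl2, Ccr7 and the chemerin receptor Cmklr1 did not pass, with mean changes from -0.44 for Cmklr1 to 0.52 for Ccrl2. The 10 receptors under 1 FPKM everywhere reached at most 0.887 FPKM. Ccr7 passed the filter on low values through the 96 h library alone.

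**Figure D4:**
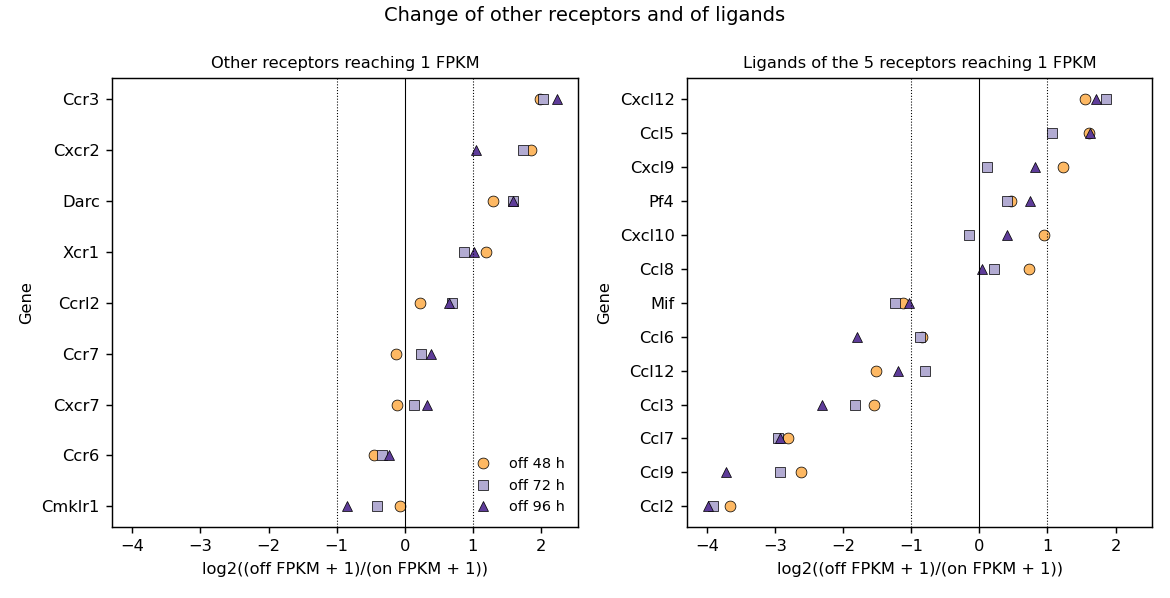
Change against the on library (log2 scale) at 48 h, 72 h and 96 h off of 9 other receptors (left) and of the 13 ligands of the 5 receptors (right) that reached 1 FPKM in at least 1 library; dotted lines mark 2-fold. Ccr3, Cxcr2 and Darc lie past 2-fold higher at each time, as do the ligands Cxcl12 and Ccl5; Ccl2, Ccl7, Ccl9, Ccl3 and Mif lie past 2-fold lower at each time.

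The ligands of the 5 receptors were split. Of 15 ligands, 13 reached 1 FPKM; by limma 7 fell, 2 rose and 4 did not pass, beside 15.2% of all genes lower and 11.8% higher. Their median changes were -0.85 (48 h), -0.87 (72 h) and -1.11 (96 h). All 3 Ccr2 ligands fell: Ccl7 was at most 0.480 FPKM off, against 9.22 FPKM on, Ccl2 was at most 1.02 FPKM off, against 24.2 FPKM on, and Ccl12, listed at 0 at 48 h, was at most 0.609 FPKM off, against 1.81 FPKM on. Ccl7 and Ccl12 passed the filter on low values through the on library alone. Among the Ccr1 ligands, Ccl3, Ccl6, Ccl7 and Ccl9 fell and Ccl5 rose, with 30.7, 20.7 and 31.3 FPKM off, against 9.41 FPKM on. Ccl8, which the list used here also counts with Ccr1 but the description of Ccr1 above does not name, did not pass. Ccl6 had 52.2, 51.4 and 26.5 FPKM off, against 94.5 FPKM on. The Cxcr4 ligand Cxcl12, made chiefly by marrow stroma, had 76.7, 94.97 and 85.8 FPKM off, against 25.5 FPKM on, and rose by 1.71 ± 0.15 (SD, n = 3; limma, Benjamini-Hochberg adjusted p = 0.00181). The endothelial and stromal markers, Cxcl12 among them, did not move as one. Of the 5 that reached 1 FPKM, by limma 2 rose, 1 fell and 2 did not pass, beside the same shares of all genes. Mif, a cytokine that also binds Cxcr4, fell, with 141, 131 and 151 FPKM off, against 309 FPKM on. The Cxcr3 ligands Cxcl9 and Cxcl10 were highest at 48 h, as was Cxcr3, and lowest of the off libraries at 72 h, where Cxcr3 was not the lowest; Cxcl9 had 3.12, 0.921 and 2.15 FPKM off, against 0.784 FPKM on. Neither passed (limma, Benjamini-Hochberg adjusted p = 0.207 and 0.445). Platelet factor Pf4, which binds a CXCR3 form in human, had 181, 173 and 220 FPKM off, against 131 FPKM on, and did not pass. Cx3cl1, the ligand of Cx3cr1, reached at most 0.722 FPKM.

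Downstream of the receptors, all 18 genes of G protein signalling and cell movement were measured; 7 fell, none rose and 11 did not pass, beside 15.2% of all genes lower and 11.8% higher by limma. Their median changes were -0.44 (48 h), -0.61 (72 h) and -0.82 (96 h). The G protein subunit gene Gng2 was at least 2-fold lower at each time, with 8.71, 8.40 and 5.59 FPKM off, against 28.8 FPKM on. Gnai2, the most abundant inhibitory G protein of leukocytes, had 404, 327 and 279 FPKM off, against 557 FPKM on, and did not pass (limma, Benjamini-Hochberg adjusted p = 0.0612). Of 14 genes that end the signal or sort the receptor, 4 fell, 1 rose and 9 did not pass, which is 5 called of 14 beside 27.0% of all genes called either way. Their medians were -0.33, -0.28 and -0.39. The arrestin Arrb1 rose, with 88.2, 125 and 122 FPKM off, against 40.9 FPKM on, while its relative Arrb2 had changes of -0.30, -0.54 and -1.03 and did not pass. Rgs1, an inhibitor of Gi signalling, fell, with 0.884, 1.23 and 1.18 FPKM off, against 3.75 FPKM on.

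For each receptor, the genes with the most similar 3 changes were taken from 8817 genes that reached 5 FPKM, by the root mean square difference over 48 h, 72 h and 96 h. Among the closest to Ccr1 were the granule enzyme activator Ctsc and Gsr, which encodes glutathione reductase, at differences of 0.04 and 0.06. Ccr2 was closest to Stk10, Acta2 and Hp, which encodes haptoglobin, all at 0.05. For Cx3cr1 they were Ppp1r18, Lpcat4 and Mgl2, a lectin of macrophages and dendritic cells, at 0.04, 0.05 and 0.06. For Cxcr3, Ms4a7, the interferon regulatory factor Irf1 and Sirpb1a stood at 0.02, 0.05 and 0.05. Rest, Gopc and Tm9sf3 were closest to Cxcr4, each at 0.02. Among the receptors themselves the closest patterns were those of Ccr2 and Cx3cr1, at 0.30, and the most distant those of Ccr1 and Cxcr3, at 2.04.

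The median change of genes at 1 FPKM or more in both libraries was -0.15, -0.09 and -0.07 at 48 h, 72 h and 96 h. Relative to it, the changes were -1.24, -1.37 and -2.03 for Ccr1, -0.35, -0.62 and -1.30 for Ccr2, -0.59, -1.02 and -1.54 for Cx3cr1, 0.93, 0.30 and 0.22 for Cxcr3, and -0.36, -0.43 and -0.61 for Cxcr4. With this shift removed, the split of limma calls over all genes became 1738 higher and 1240 lower, from 1410 and 1817, and the split of 2-fold differences at 48 h 811 and 395, from 587 and 569. Reads that fit more than 1 gene could touch Ccr2 and Cx3cr1: 129 of 6758 Ccr2 transcript stretches of 50 bases also occur in other genes (GENCODE M21), as do 47 of 4453 for Cx3cr1, against 0 for Ccr1, Cxcr3 and Cxcr4. Exons of Cx3cr1 overlap those of 1 antisense gene over 78 of 4505 bases, and whether the counting used strand is not given in the sources used here.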

How the data were processed

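Bulk RNA from 4 libraries was sequenced, 3 with NRASG12V off (48 h, 72 h and 96 h) and 1 with it on. The authors deposited FPKM per gene in 4 tables, each scaled separately; TopHat2 2.0.4, Cuffdiff and build mm9 are named in the submitters' processing notes; the annotation, read length and strand setting were not given in the sources used here. For the on library, the 0 hour column was used, the only one from before doxycycline; in the 3 tables of 1 time it differed by 1 factor per table (99.9% of values within 0.1%), and dividing by that factor put the libraries on 1 scale. Levels set across times rest on this step. Genes reaching 1 FPKM in either library were compared on log2(FPKM + 1) within a table. Limma 3.58.1 (statmod 1.5.0, R 4.3.3) compared the 3 off libraries with the on library on log2(FPKM + 1). It used an eBayes trend, robust fitting and 2 residual degrees of freedom. P-values were adjusted (Benjamini-Hochberg) over 11958 genes at 0.05. The code was also run on simulated data in which on and off libraries vary alike, so that run cannot check this assumption. An exact 0 can be a failed estimate: 36 genes reaching 20 FPKM in 1 library were listed at 0 in another, none of them a receptor described here. Of 140 list entries, 139 matched a row, with Spi1 listed as Sfpi1. Named genes were the 5 receptors, receptors and ligands reaching 1 FPKM, up to 4 genes of each other list with the largest change past 2-fold at every time and its defining markers, and the 3 most similar genes per receptor. Gnai2, Arrb2, and the non-passing marker genes were named after their values were seen. For 2 genes that these rules name, results are not reported here, so the counts over other receptors do not cover every receptor measured. The receptors and lists were chosen with earlier results of these data known.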

Additional observations from a re-analysis of the deposited data

How the results depend on the processing

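No paired analysis was possible because each time is 1 library and the labels give no replicate numbers. All values rest on 1 library a time and on a single on library, and depth is unknown. The number of genes past 2-fold was 1156, 1452 and 1824 at 48 h, 72 h and 96 h. A pseudocount of 0.1 FPKM changed it to 1830, 2185 and 2545, and one of 5 FPKM to 531, 686 and 916. With 5 FPKM Cx3cr1 at 72 h was at -0.82 and no longer 2-fold lower. Without a filter on low values limma called 281 genes (4 higher and 277 lower) of 23235, and Ccr1 and Cx3cr1 had Benjamini-Hochberg adjusted p of 0.226 and 0.340; with the median change set to 0, Cx3cr1 had 0.0640. Leaving out 1 off library each gave limma counts of 2300 to 4234 and adjusted p of 1.16e-06 to 0.00179 for Ccr1, 0.0203 to 0.0290 for Ccr2, 0.00197 to 0.00581 for Cx3cr1, 0.130 to 0.474 for Cxcr3 and 0.0326 to 0.259 for Cxcr4. Subtracting the pan-leukocyte median, added after the data were seen, left Ccr1 at -0.84, -0.58 and -0.87, Cx3cr1 at -0.23 at 72 h and -0.38 at 96 h, and Ccr2 at 0.048, 0.17 and -0.14; Cxcr4 became 0.038, 0.36 and 0.55 and Cxcr3 1.32, 1.08 and 1.38. Subtracting Ptprc, also added, took Ccr2 to -1.02 and -1.14 at 48 h and 72 h, Cx3cr1 to -1.26 and Cxcr4 to -1.03 at 48 h, and Cxcr3 to -0.22 at 72 h. The cause of these shifts was not tested. Of 108 recomputed receptor changes, 88 kept direction and side of the 2-fold line, 7 lost and 7 gained the 2-fold difference and 6 reversed. Settings that only move the filter on low values leave the change of a receptor as it is. Their part of the 88 was therefore fixed in advance and says nothing about stability. The reversals all came from the 2 subtractions. The authors' combined off value kept the direction of all 5 receptors, at -1.59 for Ccr1, -0.77 for Ccr2, -1.08 for Cx3cr1, -0.53 for Cxcr4 and 0.46 for Cxcr3.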
